A study of Homo sapiens with 4 samples.

Results

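The genes described here are the 7 human APOBEC3 cytidine deaminases together with BST2, SAMHD1 and TRIM5, host proteins that act against retroviruses and are known as restriction factors. They were taken as the targets whose RefSeq accession, carried in the probe name, mapped to one of these 10 gene symbols. All 10 genes had a value, out of 17217 named genes measured, and were covered by 39 probes in 13 targets. RNA came from HEK293, an adenovirus-transformed human line derived from embryonic kidney, kept in serum medium and left without treatment. The samples were 4 biological replicates, each from a plate of its own, and each was hybridised to an expression array of 60-base probes. There was a single group and no infected, interferon-treated or other cell type for comparison, so the question was which of these genes had message above background in untreated cells.

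Restriction factors block retroviruses at different steps. Several APOBEC3 enzymes are packaged into virions and turn cytosine into uracil in the single-stranded DNA made by reverse transcription. The lentiviral protein Vif removes several members by recruiting a host ubiquitin ligase. TRIM5 binds the incoming capsid, SAMHD1 breaks down the deoxynucleotides that reverse transcription needs, and BST2, or tetherin, holds budding particles on the cell surface and is counteracted by the viral protein Vpu. Many of these genes are induced by interferon and are best known from leukocytes, while HEK293 cells and their derivatives are widely used to produce retroviral particles and to test restriction factors after transfection.

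Values are given as distances on the log2 scale. On each array the baseline was the mean plus 2 SD of seminal protein genes that the study expected to be silent in these cells, and the distance is the gene's log2 value minus that baseline. A gene with a mean distance above 0 over the 4 arrays was called detected. For replicates 1 to 4 in turn the baselines were 9.47, 9.94, 10.69 and 10.32 log2 units. Each probe has its own affinity, so a larger distance of 1 gene than of another is not a larger amount of its message.

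Message was detected for 5 of the 10 genes, APOBEC3B, APOBEC3C, APOBEC3F, SAMHD1 and TRIM5. The first 4 lay above the baseline on all 4 arrays, and TRIM5 did so on 3. APOBEC3A, APOBEC3D, APOBEC3G, APOBEC3H and BST2 were not detected, and APOBEC3D and BST2 lay below the baseline on each of the 4 arrays. Over all 17217 genes 52.7% were detected and 45.0% cleared the baseline on every one of the 4 arrays, so the shares of 5 of 10 and 4 of 10 were near the background. The one-sided limma test against 0, with Benjamini-Hochberg adjustment over all genes, called 4 of the 10 genes and 45.9% of all genes. The median distance of the 10 genes was 0.15 log2 units and that of all genes 0.26. Detected and undetected genes occurred in the same family.

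**Figure D1:**
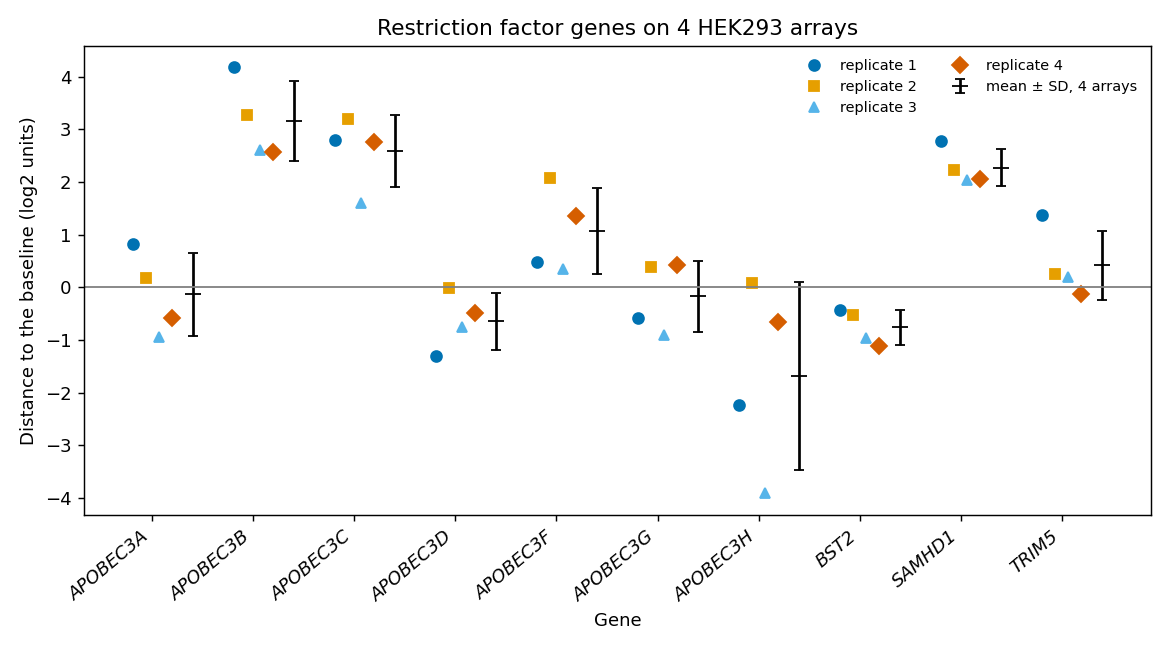
Distance of each of the 10 genes to the baseline, in log2 units, on each of the 4 arrays (coloured symbols), with the mean and SD over the arrays in black. APOBEC3B, APOBEC3C and SAMHD1 lie above 1.5 on each array, APOBEC3F lies between 0.35 and 2.08, and APOBEC3H spreads from -3.91 to 0.09.

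Among the APOBEC3 enzymes, 3 of 7 were detected and all 3 passed the limma test. APOBEC3B, a mainly nuclear member that has been linked to mutations in tumours, had distances of 4.18, 3.28, 2.61 and 2.57 on replicates 1 to 4. No array came near the baseline, and the mean was 3.16 ± 0.76 log2 units (SD, n = 4). APOBEC3C, a member with a single catalytic domain, had distances of 2.79, 3.20, 1.60 and 2.76, with a mean of 2.59 ± 0.69 (SD, n = 4). Replicate 3 was its lowest array, and all 4 stayed well above 0.

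APOBEC3F is, with APOBEC3G, the classical target of Vif. Its distances were 0.49, 2.08, 0.35 and 1.36, which kept each array above the baseline but spread the arrays over more than their mean. The mean was 1.07 ± 0.81 log2 units (SD, n = 4, limma adjusted p = 0.00276). This call rested on replicate 2, since without it the distance was 0.73 with a limma adjusted p of 0.105. APOBEC3F had 2 targets, which stood apart. The target of accession NM_145298 had distances of 2.65, 3.44, 1.46 and 2.70. The target of NM_001006666 had distances of -1.68, 0.73, -0.76 and 0.03. The first target was above the baseline on all 4 arrays and the second on 2, and the gene's value is the mean of both. With only the higher target of each gene used, APOBEC3F stood at 2.52.

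The remaining 4 APOBEC3 genes fell on either side of 0 or below it. APOBEC3G, the enzyme first identified through its suppression of virus lacking Vif, had distances of -0.59, 0.38, -0.90 and 0.42. It was above the baseline on replicates 2 and 4 and below it on replicates 1 and 3, with a mean of -0.17 ± 0.67 (SD, n = 4). APOBEC3A, a member known for high levels in myeloid cells, had distances of 0.82, 0.18, -0.95 and -0.58 and a mean of -0.13 ± 0.79 (SD, n = 4). It was above the baseline on replicates 1 and 2 only. These 2 arrays share 1 distribution of values and replicates 3 and 4 share another, and the mean of APOBEC3A was 0.50 within the first pair and -0.76 within the second. After quantile normalization of all 4 arrays together the mean of APOBEC3A over the arrays was -0.17, against -0.13. A mean over all 4 arrays cannot show whether the difference between the pairs remained, and this was not tested. The reported means of APOBEC3G and APOBEC3A were both smaller in size than the limma standard error of 0.351. These values therefore do not separate the 2 genes from the baseline in either direction.

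APOBEC3D, a member with 2 deaminase domains, had distances of -1.31, -0.01, -0.76 and -0.48, with a mean of -0.64 ± 0.54 (SD, n = 4). APOBEC3H, the most divergent member by sequence, had distances of -2.24, 0.09, -3.91 and -0.66. Its mean was -1.68 ± 1.78 (SD, n = 4), the widest spread among the 10 genes. Of the 364 olfactory receptor genes, taken as a background of silent genes, it lay above 22.8% on the array where it ranked lowest and above 99.5% where it ranked highest. Its level thus ranged from that of silent genes to the edge of detection within replicates of 1 line.

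The APOBEC3 genes lie next to each other on chromosome 22. In the order of the RefSeq gene table, with measured genes only, they run from APOBEC3A to APOBEC3H between the Polycomb genes CBX6 and CBX7, and the detected members APOBEC3B, APOBEC3C and APOBEC3F are interspersed with the others. CBX6 stood at 1.29 ± 0.68 and CBX7 at -0.81 ± 0.64 log2 units (SD, n = 4 for each). More distant relatives of the family were also looked up. None of APOBEC1, APOBEC2 and APOBEC4 was detected. APOBEC1, the RNA editor of apolipoprotein B, stood at -3.12 ± 0.28 and APOBEC4 at -3.35 ± 0.20 log2 units (SD, n = 4 for each). APOBEC2 had distances of 1.18, -1.36, -0.76 and -1.13, so that replicate 1 alone lay above 0.

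SAMHD1 had the smallest spread of the detected members. Its distances were 2.78, 2.23, 2.03 and 2.06, and its mean was 2.27 ± 0.35 log2 units (SD, n = 4). All 3 of its probes were above the baseline on each array. Its promoter is shown because it differs from those of the other members found in the RefSeq promoter table, which held 4 of the 10 genes (APOBEC3H, BST2, SAMHD1 and TRIM5). The stretch is chr20:36951659-36951958 of GRCh38.p14, minus strand, 250 bases before the annotated start to 50 after it, written 5′ to 3′ with each CpG in capitals.
SAMHD1: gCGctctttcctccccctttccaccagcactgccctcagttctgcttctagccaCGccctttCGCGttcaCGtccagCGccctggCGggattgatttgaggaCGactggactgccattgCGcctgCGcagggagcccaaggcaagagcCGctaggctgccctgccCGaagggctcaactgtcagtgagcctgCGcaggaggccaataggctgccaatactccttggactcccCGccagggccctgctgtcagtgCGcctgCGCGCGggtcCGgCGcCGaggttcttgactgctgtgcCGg
It held 22 CpG dinucleotides, against 6 in TRIM5, 2 in BST2 and 1 in APOBEC3H, and the median over all 35116 promoters was 14. Among measured genes with a single promoter in the table, 4303 of 6006 with 20 or more CpGs (71.6%) were detected. With 10 to 19 CpGs it was 793 of 1574 (50.4%), with 5 to 9 it was 136 of 900 (15.1%), and with 4 or fewer 88 of 1592 (5.53%). These shares describe all such genes and were not tested for the members.

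SAMHD1 is switched off as a restriction factor when cyclin-dependent kinases phosphorylate it in dividing cells. All 8 listed kinase and deoxynucleotide genes were detected on all 4 arrays, against 45.0% of all genes. Their median distance was 3.60, against 0.26 for all genes. CDK1 stood at 3.49 ± 0.90, CDK2 at 4.92 ± 0.52 and CCNA2, the gene for cyclin A2, at 3.86 ± 0.87 (SD, n = 4 for each). The ribonucleotide reductase subunits RRM1 and RRM2, which make deoxynucleotides, stood at 2.98 ± 1.05 and 3.72 ± 0.82 (SD, n = 4 for each). Message for the enzyme and for its known kinases was therefore present in the same cultures. The arrays measure RNA and give nothing on phosphorylation. The measured neighbours of SAMHD1 on chromosome 20 were TLDC2 at -1.79 ± 0.46 and RBL1 at 2.39 ± 0.25 (SD, n = 4 for each).

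TRIM5 was close to the baseline. Its distances were 1.37, 0.25, 0.19 and -0.12, with replicate 1 set apart above the others, and the mean was 0.42 ± 0.65 log2 units (SD, n = 4, limma adjusted p = 0.234). Without replicate 1 it was 0.11 (limma adjusted p = 0.753). Its 3 targets differed. The targets of NM_033092 and NM_033093 were above the baseline on all 4 arrays, at 0.71 ± 0.59 and 0.78 ± 0.61 (SD, n = 4 for each). That of NM_033034 stood at -0.22 ± 0.81 (SD, n = 4) and was above it on 1 array. With the highest target of each gene, TRIM5 stood at 0.75 and passed the test (limma adjusted p = 0.040).

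The TRIM5 promoter is shown with the interferon-stimulated response element in view, a motif through which interferon-activated factors bind DNA. It was searched as GAAANNGAAA on both strands, and the match is in capitals. The stretch is chr11:5685025-5685324 of GRCh38.p14, minus strand, over the same window as above.
TRIM5: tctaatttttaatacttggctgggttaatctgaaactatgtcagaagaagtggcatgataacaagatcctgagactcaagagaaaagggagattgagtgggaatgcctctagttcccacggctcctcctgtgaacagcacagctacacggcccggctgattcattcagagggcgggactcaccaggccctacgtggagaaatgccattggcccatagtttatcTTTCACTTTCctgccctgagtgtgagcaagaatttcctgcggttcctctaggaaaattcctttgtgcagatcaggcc
The match starts at position -27 from the annotated start and is on the opposite strand. The motif was found in 1255 of 35116 promoters (3.57%). A match is a description of these letters and not a measured binding site.

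Partners of TRIM5 and related TRIM genes were looked up as 1 list. Of these 8 genes, 6 were detected, 5 of them on each of the 4 arrays taken singly. Over all genes the shares were 52.7% and 45.0%. The detected gene that missed some arrays was UBE2W, at 0.02 ± 0.83 log2 units (SD, n = 4, limma adjusted p = 0.906). PPIA, cyclophilin A, which binds the HIV-1 capsid, stood at 4.25 ± 0.75 log2 units (SD, n = 4). UBE2N and UBE2V1, the pair of enzymes with which TRIM5 builds ubiquitin chains, stood at 2.16 ± 0.87 and 4.83 ± 0.63 (SD, n = 4 for each). TRIM6 and TRIM34, related genes of the list at the TRIM5 locus on chromosome 11, were not detected, at -0.63 ± 0.67 and -2.94 ± 0.87 (SD, n = 4 for each). Nor was TRIM22 at the same locus, which was listed with the interferon-induced genes, at -3.15 ± 0.67 (SD, n = 4). TRIM21, an intracellular antibody receptor, was detected at 1.83 ± 1.01 (SD, n = 4).

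BST2 was below the baseline on each array, with distances of -0.43, -0.52, -0.96 and -1.12 and a mean of -0.76 ± 0.33 log2 units (SD, n = 4). In distances this was the narrowest spread among the 10 genes. In levels SAMHD1 (SD 0.24) and APOBEC3A (SD 0.27) varied less than BST2 (SD 0.30). The level of BST2 was nevertheless above 98.9% to 99.5% of the olfactory receptor genes on each array. It thus lay between the silent genes and the baseline. Its promoter is shown because it holds 2 overlapping matches to the response element, in capitals. The stretch is chr19:17405581-17405880 of GRCh38.p14, minus strand, over the same window.
BST2: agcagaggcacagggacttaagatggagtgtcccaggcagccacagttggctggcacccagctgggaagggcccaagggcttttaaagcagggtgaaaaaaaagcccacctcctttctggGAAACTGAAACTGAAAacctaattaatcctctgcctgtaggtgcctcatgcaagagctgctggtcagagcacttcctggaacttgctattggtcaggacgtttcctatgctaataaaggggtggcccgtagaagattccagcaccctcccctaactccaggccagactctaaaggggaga
The matches start at positions -130 and -124 and share letters. Of all promoters, 91 (0.259%) held 2 or more matches. Among measured genes with a single listed promoter, 138 of 322 with the motif (42.9%) were detected, against 5182 of 9750 without it (53.1%). Of the measured neighbours of BST2 on chromosome 19, MVB12A stood at 2.96 ± 0.84 and PLVAP at -2.63 ± 0.40 (SD, n = 4 for each).

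The probes of a gene often differed. Of the 39 probes, 19 (48.7%) had a mean above the baseline, against 43.2% of all 71998 probes. All 3 probes of APOBEC3B, of SAMHD1 and of the APOBEC3F target NM_145298 were above the baseline on each array. For APOBEC3C 2 of 3 were, and the probe numbered 1 had a mean distance of -0.76. APOBEC3A had 1 probe of 3 with a mean above the baseline, number 771, at 2.32, 1.12, 0.29 and -0.18, while number 1289 stood at -2.70, -3.22, -3.05 and -2.25. Summarised by the median of its probes in place of the mean of their linear values, APOBEC3A fell to -1.08. APOBEC3G likewise had 1 probe of 3 above the baseline, number 701, at 0.35, 1.60, -0.09 and 1.52. BST2 had no probe with a mean above the baseline, though number 354 was above it on 3 arrays, at 0.12, 0.51, 0.09 and -1.55.

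Between the probes of a target the means spanned a median of 2.59 log2 units for the 13 targets and 1.44 for all targets with 3 probes. The TRIM5 targets of NM_033092 and NM_033093 carried probes of the same number, 399 and 1068, and these differed between targets by 0.04 to 0.97 and by 0.13 to 0.53 on the same array. Probe sequences were not analysed here, and whether a probe of 1 APOBEC3 gene also binds message of another was not tested. The labelled material was double-stranded cDNA, so the 2 strands of overlapping genes cannot be told apart.

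**Figure D2:**
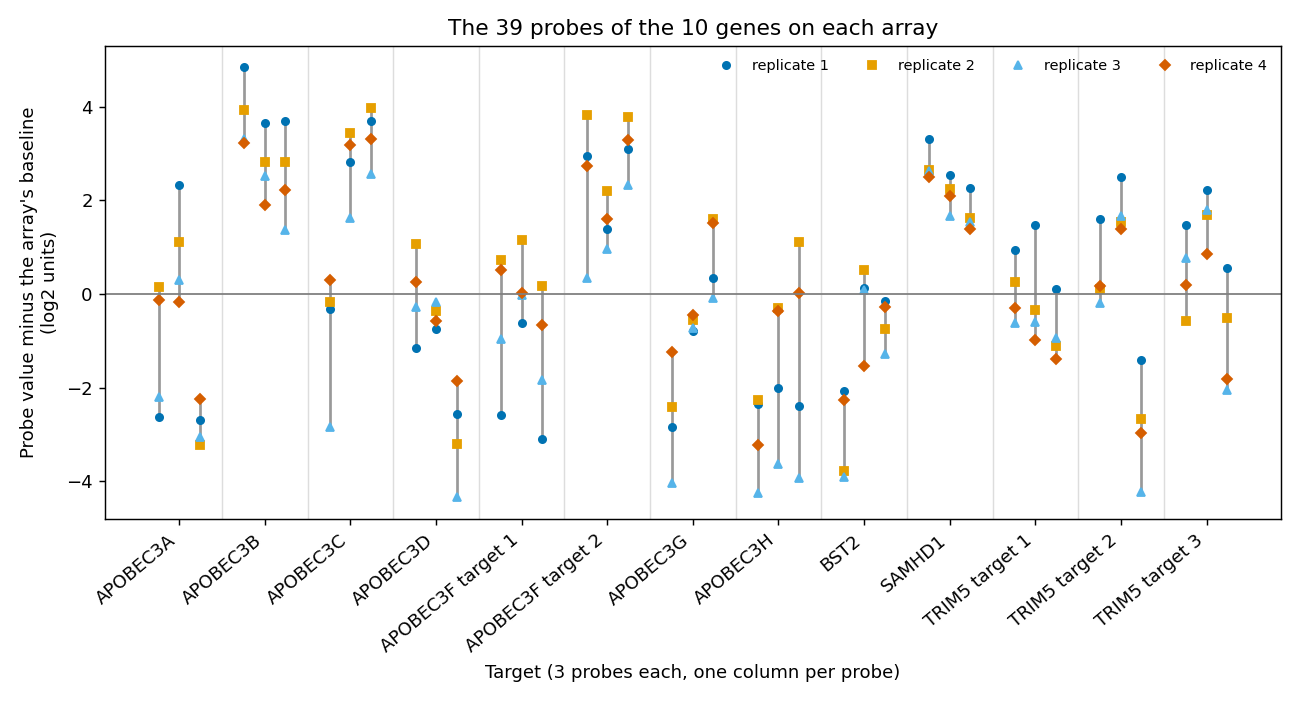
Value of each of the 39 probes minus the array's baseline, in log2 units, on the 4 arrays, grouped by target and ordered by probe number within a target. Grey lines join the lowest and highest array of a probe. APOBEC3F target 1 is NM_001006666 and target 2 is NM_145298, and TRIM5 targets 1 to 3 are NM_033034, NM_033092 and NM_033093. APOBEC3B and SAMHD1 have all probes above 0, while APOBEC3A, APOBEC3C and TRIM5 have probes on both sides.

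The arrays were not ordered alike for every gene. In levels before subtraction, both of replicates 2 and 4 lay above both of replicates 1 and 3 for 4 of the 10 genes, against 18.5% of all genes. These were APOBEC3C, APOBEC3F, APOBEC3G and APOBEC3H. APOBEC3H had levels of 7.23, 10.03, 6.78 and 9.66 on replicates 1 to 4, and APOBEC3G had 8.88, 10.32, 9.79 and 10.74. The reverse held for APOBEC3B and TRIM5, 2 of the 10 genes against 22.2% of all genes. APOBEC3B had levels of 13.65, 13.22, 13.30 and 12.89. The 4 arrays belong to 1 group, so these orders are a description and were not tested.

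Interferon-induced genes outside the 10 were looked at on the same arrays. In levels, 7 of 15 had both of replicates 2 and 4 below both of replicates 1 and 3, and 3 had them above. Over all genes the shares were 22.2% and 18.5%. RSAD2, an antiviral enzyme that is strongly induced by interferon, had levels of 9.38, 6.28, 9.27 and 7.42, and OAS1, which senses double-stranded RNA, had 8.69, 6.89, 8.88 and 7.30. Both stayed below the baseline on each array. Of 10 genes listed as HEK293 markers 6 had the same order, most widely the neurofilament gene NEFM, with distances of 4.10, -1.62, 2.40 and -2.24. Over all genes the levels had a Pearson correlation of 0.971 between replicates 1 and 3 and of 0.977 between replicates 2 and 4. The other pairs lay between 0.949 and 0.959. The part of such array differences in the APOBEC3 values was not tested.

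The calls depended on where zero was set. The control genes AFG2A, listed by the study as SPATA5, and SPATA13 stood at -0.13 and -0.38, the other 8 matched controls at -3.58 to -2.85, and without this pair the mean baseline was 7.78 in place of 10.10. Then 10 of the 10 genes were detected, and the share of all genes rose to 74.0%. With olfactory receptor genes as controls the baseline was 8.02, again with 10 of 10 detected against 71.4% of all genes. BST2 then stood at 1.33 and APOBEC3G at 1.91, while APOBEC3H, at 0.40, was above the baseline on replicates 2 and 4 only (limma adjusted p = 0.233). With 3 SD 39.1% of all genes and 3 of the 10 were detected, APOBEC3B at 1.84, APOBEC3C at 1.27 and SAMHD1 at 0.96. APOBEC3B, APOBEC3C and SAMHD1 were the members detected under all alternatives run.

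**Figure D3:**
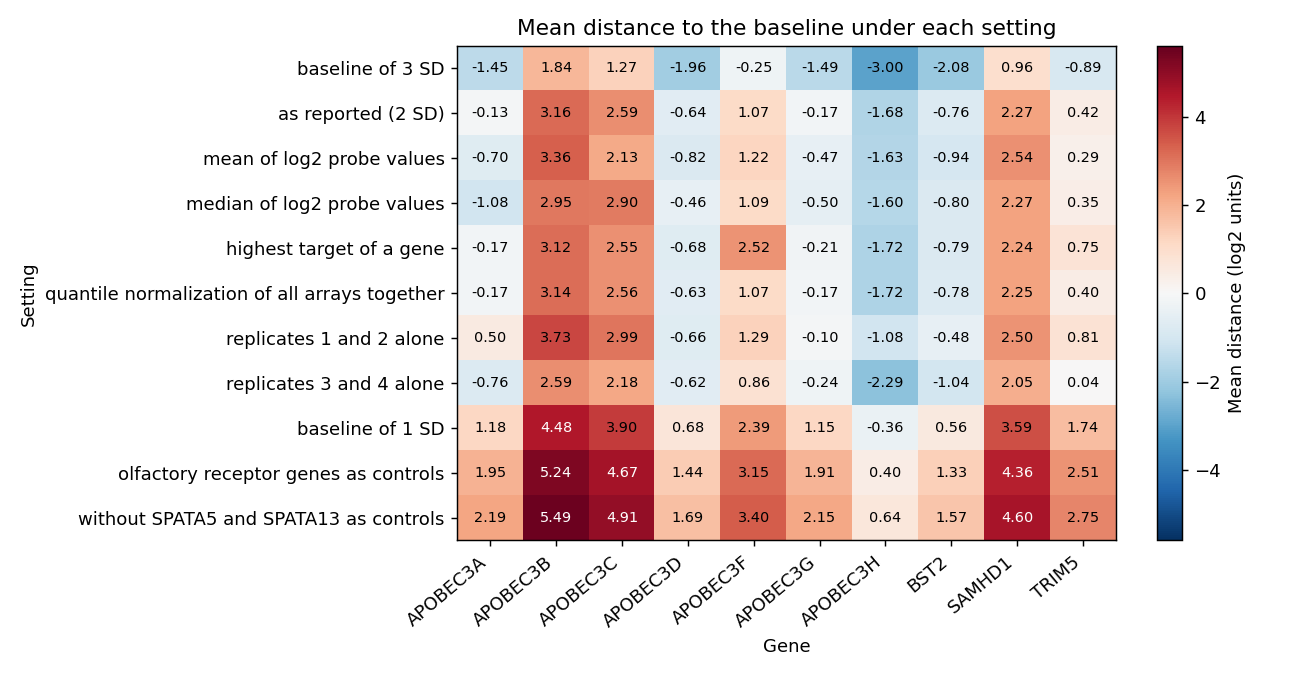
Mean distance to the baseline, in log2 units, for each gene (columns) under the reported setting and 10 alternatives (rows), with red above and blue below 0. APOBEC3B, APOBEC3C and SAMHD1 are above 0 in each row shown, and the other 7 genes change sign with the control genes or the number of SDs.

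Other antiviral genes were then set beside the members, from lists chosen by function. Of 15 interferon-induced antiviral genes, 6 were detected, all on 4 of 4 arrays, and the median distance of the 15 was -0.47 log2 units. Over all genes 52.7% were detected, 45.0% cleared the baseline on all 4 arrays, and the median distance was 0.26. HERC5, the ligase for the ubiquitin-like protein ISG15, stood at 3.72 ± 0.72 and EIF2AK2, the RNA-dependent kinase PKR, at 3.68 ± 0.69 (SD, n = 4 for each). IFI16, a DNA sensor, stood at 2.44 ± 0.53, SLFN11, which limits synthesis of viral proteins, at 1.90 ± 0.75, and ZC3HAV1, the zinc-finger antiviral protein, at 1.44 ± 0.92 (SD, n = 4 for each). IFITM3, which hinders virus entry, stood at 1.24 ± 0.80 (SD, n = 4). ISG15 itself was below the baseline at -1.61 ± 0.93, and so were MX2, a capsid-binding factor, at -2.49 ± 0.23 and GBP5 at -3.49 ± 0.59 (SD, n = 4 for each). Detected and undetected genes thus occurred together in this list, as they did among the 10 genes.

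Factors against retroviruses that need no induction were mostly present. Of 8 measured genes, 7 were detected, 6 of them on each of the 4 arrays taken singly, with a median distance of 2.55. The shares over all genes were 52.7% and 45.0%, and the median was 0.26. TRIM28 and SETDB1, which silence integrated retroviral elements through histone methylation, stood at 5.13 ± 0.56 and 3.37 ± 0.57 log2 units (SD, n = 4 for each). The genes of the HUSH silencing complex, MPHOSPH8, TASOR and PPHLN1, stood at 2.68 ± 0.61, 1.68 ± 0.93 and 2.94 ± 0.68 (SD, n = 4 for each). SERINC3 stood at 2.42 ± 0.80 and SERINC5, the more potent inhibitor of virion infectivity of this pair, at 0.26 ± 1.09 (SD, n = 4 for each, limma adjusted p = 0.467 for SERINC5).

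Of the listed host machinery that viral antagonists recruit, 13 of 13 genes were detected, 12 of them on each of the 4 arrays. Over all genes the shares were 52.7% and 45.0%. The median distance was 2.86, against 0.26 for all genes. Vif uses a ligase of CUL5, ELOB, ELOC and RNF7 together with CBFB. ELOB stood at 3.41 ± 0.62, ELOC at 3.35 ± 0.77, RNF7 at 2.75 ± 0.70 and CBFB at 2.49 ± 0.77 (SD, n = 4 for each). CUL5 was the exception, with distances of 1.58, 0.27, -1.0 and -0.36 and a mean of 0.12 ± 1.10 (SD, n = 4, limma adjusted p = 0.704). BTRC, through which Vpu acts on BST2, stood at 1.88 ± 1.13 (SD, n = 4). DCAF1 and DDB1, used by Vpx to remove SAMHD1, stood at 2.22 ± 0.08 and 5.15 ± 0.64 (SD, n = 4 for each). Uracil left in DNA by deaminases is removed by repair enzymes, and 5 of 5 measured genes of that list were detected, among them UNG, the main uracil-DNA glycosylase, at 4.99 ± 0.54 (SD, n = 4).

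**Figure D4:**
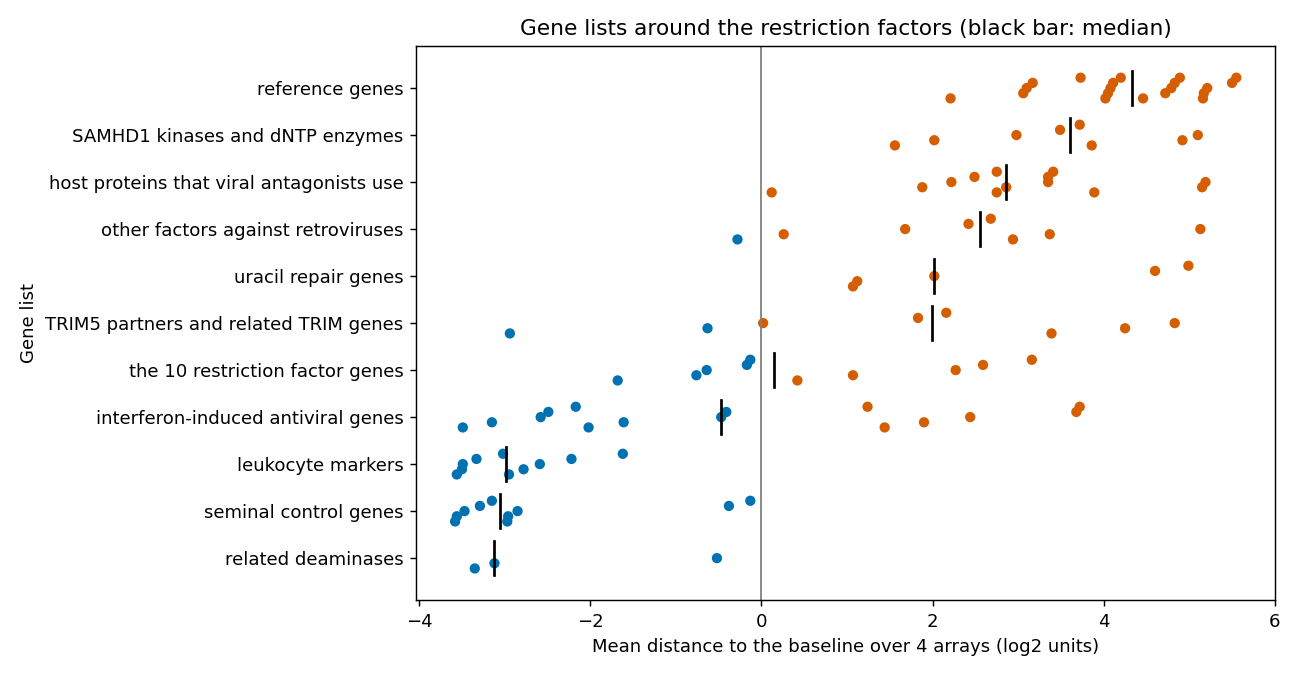
Each point is a gene's distance averaged over the 4 arrays, in log2 units, in 11 lists, with points above 0 in orange, points below 0 in blue and the median as a black bar. The 10 restriction factor genes span -1.68 to 3.16 around a median of 0.15, between the host proteins used by viral antagonists (median 2.86) and the leukocyte markers (median -2.99).

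The identity of the cells was checked with markers. None of 10 leukocyte markers was detected, their highest distance on any array was -0.50, for CD4, and the mean level of the list ran from 6.79 to 7.56 log2 units over the arrays. For CD4 this depends on the baseline. Its mean level of 8.49 was above the mean baseline of 8.02 from olfactory receptor genes, and the other markers of the list were below it. PTPRC, the common leukocyte antigen CD45, stood at -3.50 log2 units. Of 10 genes listed for HEK293 cells 8 were detected, 6 of them on each of the 4 arrays taken singly. Over all genes the shares were 52.7% and 45.0%. VIM stood at 5.26 ± 0.64, KRT8 at 4.80 ± 0.66 and NEFL at 4.01 ± 0.56 (SD, n = 4 for each). NEFM at 0.66 ± 3.08 and SOX2 at 0.65 ± 0.84 (SD, n = 4 for each) were each above the baseline on 2 arrays. Neither passed the limma test. The kidney development genes PAX2 and LHX1 were not detected, at -1.63 ± 0.74 and -1.44 ± 1.01 (SD, n = 4 for each). Where they ranked lowest they still lay above 90.7% and 92.3% of the olfactory receptor genes. Their mean levels of 8.48 and 8.67 were above the mean baseline of 8.02 from olfactory receptor genes, so these 2 calls depend on the baseline. All 20 widely used reference genes were detected.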

How the data were processed

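The authors deposited 1 log2 value per probe for each of 4 arrays (NimbleGen 4-plex, HG18 gene catalogue, 1 colour, Cy3), extracted with NimbleScan. The submitters' processing notes name RMA, and a background correction is not given in the sources used here. Sorted values agreed within 0.01 at 100% of ranks (rounded) for replicates 1 and 2 and for replicates 3 and 4, and at 1.23% to 1.25% between these pairs, the form that quantile normalization in pairs gives. Raw intensities were not used here, and the number of arrays limits the precision. The 71998 probes defined 24000 targets, of which 19125 were named through RefSeq accessions (table of GRCh38.p14), giving 17217 genes.

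A target was log2 of the mean of its linear probe values, and a gene the mean of its targets. The detection rule was the study's, with 10 of 11 control genes matched. The test was limma 3.58 in R 4.3, one-sided against 0 over all genes, tested on simulated data. The simulation drew values independently with a common SD for all genes. It could therefore show neither the effect of a baseline shared within an array nor that of SDs that differ between genes. The prior of limma made every gene's standard error 0.351. A shift of 1 array's baseline moves all its genes together, so the tests were not independent. The smallest p that an exact sign-flip permutation allows for 4 arrays is 0.0625, so p-values rest on the pooled spread. The members and lists were chosen with earlier results of these data known. Named were the members, their nearest measured neighbours, the controls and the genes of the fixed lists. PYY2, TREX1, MARCHF8 and TDG had no matched target. Alternatives were other baselines, probe and target summaries, joint quantile normalization, subsets of arrays and another variance model. One further related deaminase is not reported here.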

Additional observations from a re-analysis of the deposited data

Results flagged for a closer look

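Each of the 10 genes was examined for 1 array that stood apart from the other 3, in levels and in distances, which makes 20 sets of 4 values. Dixon's 95% critical value for the gap divided by the range was passed by 1 of them, and chance alone passes it in about 1 in 20. Replicate 1 had an APOBEC3D level of 8.16 log2 units, while replicates 2 to 4 had 9.84 to 9.93, and the gap was 0.949 of the range. Its distances did not pass. The cause was not tested.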

How the results depend on the processing

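With a baseline of 1 SD 9 genes were detected, 8 lay above it on all arrays and limma called 8, against 64.3%, 57.9% and 58.9% of all genes. The counts were 10, 9 and 9 without SPATA5 and SPATA13 as controls, and also 10, 9 and 9 with olfactory receptor genes. With 3 SD 3 genes were detected, and APOBEC3F and TRIM5 turned to -0.25 and -0.89. The other 33 alternative counts stayed within 1.5 times the reported ones. Other changes of sign were to positive values. With 1 SD, APOBEC3A stood at 1.18, APOBEC3D at 0.68, APOBEC3G at 1.15 and BST2 at 0.56. Without SPATA5 and SPATA13, APOBEC3A stood at 2.19, APOBEC3D at 1.69, APOBEC3G at 2.15, APOBEC3H at 0.64 and BST2 at 1.57. With olfactory receptor genes they stood at 1.95, 1.44, 1.91, 0.40 and 1.33. These moves follow from the height of the baseline. APOBEC3A stood at 0.50 on replicates 1 and 2 alone. Leaving out 1 replicate moved APOBEC3A between -0.45 and 0.14 and APOBEC3G between -0.37 and 0.07. Of the 150 values for single genes, 124 kept their sign and side of the threshold and 20 changed sign. Counted over all 150, 15 gained and 3 lost significance. The losses were APOBEC3F with 3 SD (limma adjusted p = 1.0), without replicate 2 (limma adjusted p = 0.105) and on replicates 3 and 4 alone (limma adjusted p = 0.0511).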
